A study of Mus musculus with 4 samples.

Results

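The genes described here encode the nuclear-encoded subunits of the mitochondrial respiratory chain and ATP synthase, measured in cultured primary mouse hepatocytes with and without the fission protein Drp1. Members were chosen by name alone: probes whose gene name begins with Nduf followed by a, b, c, s or v and a digit, Uqcr, Cox4 to Cox8 or Atp5, or is Sdha, Sdhb, Sdhc, Sdhd or Cyc1. In all, 85 of 37074 feature names on the arrays met this rule, and 82 of them had a probe well above background on at least 1 array, out of 20614 names measured. Each gene was represented by its brightest probe. The 82 measured names comprised 37 of 37 names of complex I, 4 of 4 of complex II, 9 of 9 of complex III, 14 of 17 of complex IV, 15 of 15 of complex V, and 3 names that match the pattern without being subunits (Atp5s and Atp5sl, which are named for complex V, and the pseudogene Atp5c1-ps). The 3 names not well above background on any array were Cox7b2, Cox8b and Cox8c, which are complex IV isoforms of other tissues.

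The 4 groups of cells compared had 1 Agilent 1-colour array each: control, Drp1LiKO, control with 200 µM palmitate and Drp1LiKO with 200 µM palmitate. All cells came from C57BL/6 mice and were collected 24 h after seeding. Drp1LiKO cells lack Drp1 (gene Dnm1l) through a floxed allele and a Cre transgene driven by the albumin promoter, a knockout that the study calls liver-specific. Control cells are described as wild-type in the labels and as Drp1 flox/flox sibling littermates in the study's methods, so a floxed allele may be carried by all 4 groups. The mice were male. The number of mice behind each culture and their age were not given in the sources used here. Palmitate was given for 24 h in other assays of such cultures, and its duration for the arrays was not stated. The label of the untreated control states that its raw data were also used for a sample of another series. Since every group is a single array, no difference between a pair of arrays could be tested, and the differences below are values of these arrays.

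The respiratory chain passes electrons from NADH (complex I) and succinate (complex II) through complex III and cytochrome c to oxygen at complex IV, and the proton gradient built on the way drives ATP synthesis by complex V. Most subunits are encoded in the nucleus, translated in the cytosol and imported, while a few core subunits of complexes I, III, IV and V are encoded by mitochondrial DNA. Transcription of the nuclear genes is known to involve NRF1, the ETS factor GABP (NRF2) and YY1, acting with coactivators of the PGC-1 family. Hepatocytes are rich in mitochondria, and Drp1 is the dynamin-related GTPase that divides them.

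Some promoters of these genes carried the motifs of these factors, and short stretches of several are shown. Whether these factors have a part in the genotype differences that follow was not tested. Promoter sequence of 300 bases (250 before and 50 after the annotated start) from RefSeq on build GRCm38.p6 was matched for 66 of the 85 members, 1 of them through a synonym. Both strands were searched for GCGCANGCGC (NRF1), CCGGAAG (ETS factors) and AANATGGCG (YY1), and no matches of different motifs overlapped in the members. The NRF1 motif was present in 17 of 66 members (25.8%), against 5.19% of 27025 genes with a promoter in the table and 14.0% of 2447 such genes with a bright probe. The ETS motif was present in 16 members (24.2%), against 9.93% of all genes and 23.5% of the bright ones. The YY1 motif was present in 10 members (15.2%), against 2.76% and 6.82%. At least 1 of the 3 motifs was present in 37 members (56.1%), against 15.9% and 38.1%. Bright here means a mean level of at least 3 on the log2 scale defined below. The windows of 40 bases below lie upstream of the start, read 5′ to 3′ on the strand of the gene, with the match in capitals (GCGCANGCGC or CCGGAAG on either strand). They come from chr6:24527692-24527731, minus strand (Ndufa5), chr17:56717687-56717726, plus strand (Ndufa11), chr13:73328483-73328522, minus strand (Ndufs6), chr8:83566718-83566757, plus strand (Ndufb7), chr16:84835014-84835053, minus strand (Atp5j), chr13:74350241-74350280, minus strand (Sdha) and chr5:115348959-115348998, minus strand (Cox6a1). The first 5 genes were lower in Drp1LiKO in both conditions, by amounts given below, while Sdha differed by -0.064 without and 0.042 with palmitate and Cox6a1 by -0.029 and -0.048, on the log2 scale defined below.
Ndufa5: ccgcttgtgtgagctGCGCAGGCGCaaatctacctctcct
Ndufa11: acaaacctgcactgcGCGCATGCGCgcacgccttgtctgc
Ndufs6: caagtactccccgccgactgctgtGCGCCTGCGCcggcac
Ndufb7: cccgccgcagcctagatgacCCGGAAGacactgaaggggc
Atp5j: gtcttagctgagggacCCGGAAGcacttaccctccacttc
Sdha: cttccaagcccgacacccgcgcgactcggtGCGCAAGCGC
Cox6a1: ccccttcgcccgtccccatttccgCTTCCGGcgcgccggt
Over the 17 measured genes with the NRF1 motif, the median log2 difference of Drp1LiKO from control was -0.093 without and -0.20 with palmitate, and over the 47 without it -0.11 and -0.13. Over the 16 genes with the ETS motif the medians were -0.17 and -0.14, and over the 48 without it -0.097 and -0.14. These are descriptions of a sequence match and not of binding.

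Levels are log2 of the scanner's processed signal minus the array's 75th percentile, so a level of 0 equals that percentile and a difference of 1 is 2-fold. The 75th percentile of signal intensity was 485, 542, 424 and 468 on the control, Drp1LiKO, control with palmitate and Drp1LiKO with palmitate arrays. Between 44.7% and 51.1% of probes were well above background and no spot was saturated. Repeated spots of the same probe had a median SD of 0.034 to 0.038 on the log2 scale within an array, which covers spot noise and not the spread between cultures. The scanner's own error model gave a wider error of about 0.204 for a difference between arrays. The difference exceeded this error in 24 of 82 members for genotype without palmitate and 27 with it. For palmitate it did so in 5 members in control and 4 in Drp1LiKO cells. That count was not made over all genes, so it cannot be read as a result about the members. A log2 difference of 0.5, a wider cut and so no background for these counts, was passed by 31.1%, 25.1%, 12.8% and 17.6% of all genes in the same order of comparisons. Dnm1l had levels of 2.42, 1.07, 2.43 and 1.01 in the order above, in the direction of the labels. Both untreated arrays shared 1 slide and both palmitate arrays a different one, so palmitate and slide cannot be told apart, while the genotypes were compared within a slide. Of the hepatocyte markers, 10 of 10 were well above background on all arrays.

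The 82 subunit genes were among the steadier transcripts on these arrays. All 82 were well above background on all 4 arrays, and 75 had a mean level of at least 3. The median range over the 4 arrays was 0.21 for the members, 0.49 for all genes measured and 0.28 for the 4040 genes with a mean level of at least 3. The range was under 0.5 for 78 of 82 members, and it reached 1.00 in a single one, Cox6a2, a muscle isoform at a low level here. The plot of levels by array shows the rows of the 2 control arrays mostly above and the rows of the 2 Drp1LiKO arrays mostly below each gene's mean.

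**Figure D1:**
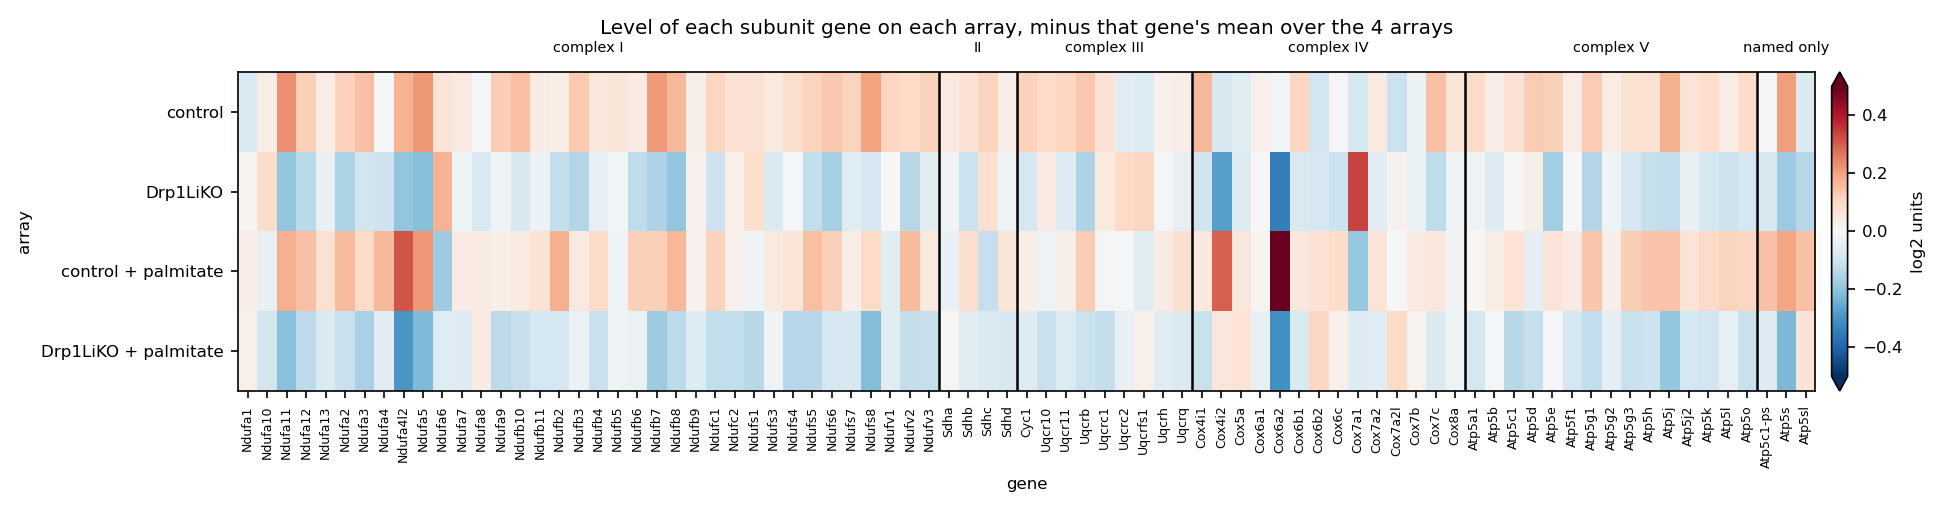
Level of 81 of the 82 measured genes (columns, grouped by complex, with the 3 names that are no subunits last as named only) on each of the 4 arrays (rows), as the log2 difference from that gene's mean over the 4 arrays; red is above and blue below, and colours stop at 0.5 in either direction. Both Drp1LiKO rows are mostly blue, and the strongest colours fall on the low-level isoforms Cox6a2, Cox7a1, Cox4i2 and Ndufa4l2.

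The comparison of Drp1LiKO with control hepatocytes asked whether loss of Drp1 was accompanied by a different level of the respiratory chain transcripts. No subunit differed by 2-fold or more, but most were slightly lower in Drp1LiKO, in both conditions. Without palmitate, 73 of 82 members were lower, with a median log2 difference of -0.11, and values from -0.43 (Ndufa5) to 0.42 (Cox7a1). With palmitate, 73 of 82 were again lower, with a median of -0.14 and values from -0.97 (Cox6a2) to 0.12 (Cox7a1). The background was 52.2% of all genes lower without palmitate and 53.7% with it, and 64.3% and 64.5% of genes with a mean level of at least 3. The median over those bright genes was -0.090 without and -0.074 with palmitate, against -0.021 and -0.030 over all genes. The members' median thus lay close to that of other bright transcripts without palmitate and further below it with palmitate.

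Of the 82 members, 0 were past a 2-fold difference in either condition, where 14.4% of 19874 genes tested were without palmitate and 11.5% of 18890 with it. Among bright genes those shares were 2.62% and 1.83%. At a smaller difference of 0.5 on the log2 scale, 0 members were past it without palmitate (31.1% of all genes, 12.8% of bright genes). With palmitate 2 were, Cox6a2 and Ndufa4l2, both lower (25.1% and 8.79%), and both have low levels. The 2 genotype comparisons share no array. In them, 69 of 82 members (84.1%) were lower in both conditions and 5 were higher in both, while 55.7% of bright genes and 42.8% of all genes tested in both were lower in both. Across the members the 2 differences had Pearson's r = 0.73 and Spearman's rho = 0.76 (82 genes, which share arrays and are not independent), and across bright genes r = 0.84 and rho = 0.80. A value at least 0.2 lower in both conditions was seen in 18 members (22.0%), against 17.5% of bright genes, and one at least 0.2 higher in both in 0 members, against 11.8%.

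The size of the shift depended on the scaling of the arrays. With arrays scaled by their medians, the median difference of all genes moved from -0.021 to -0.20 without and from -0.030 to -0.17 with palmitate, and that of the members to -0.30 and -0.29. This scaling shifts every gene by the same amount, so the distance between members and all genes could not change. In the quantile-normalised table of the authors the members' medians were -0.049 and -0.099, against -0.026 and -0.024 for all genes. Centred on the bright genes, an alternative chosen after seeing the data, they were -0.023 and -0.066. The median was below 0 under each of these scalings, as the plot of medians by scaling shows. The number of members lower in Drp1LiKO ranged from 50 to 81 without and from 61 to 82 with palmitate. Without a filter on dim probes the members' medians of -0.11 and -0.15 lay above those of all genes, -0.22 and -0.23.

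**Figure D2:**
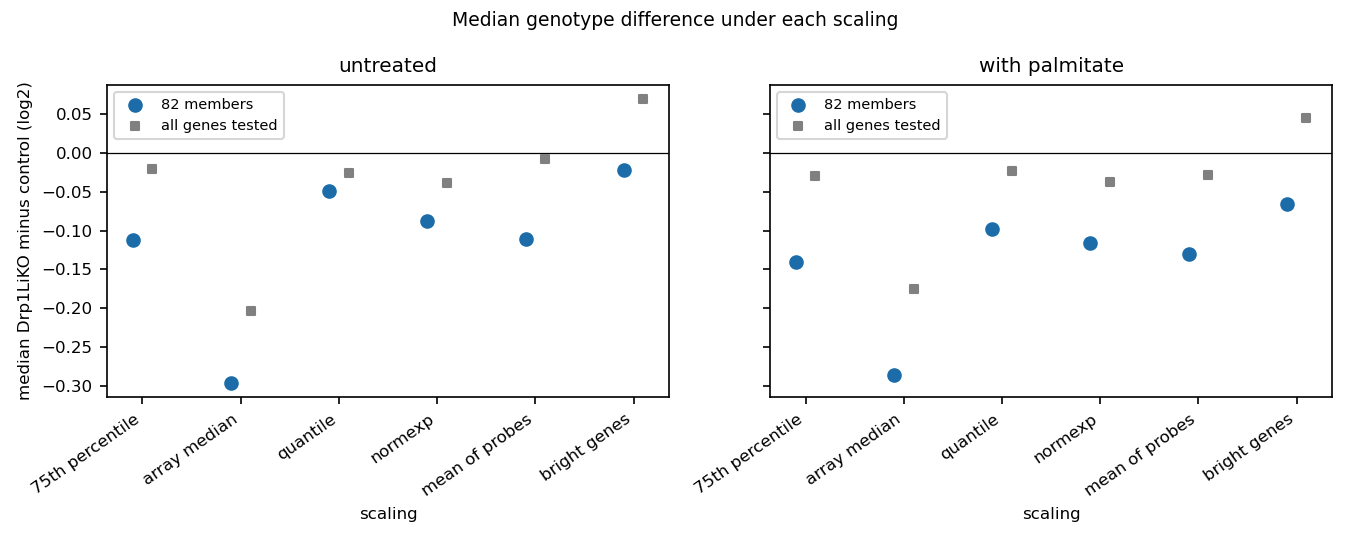
Median log2 difference of Drp1LiKO from control over the 82 members (circles) and over all genes tested (squares) under 6 ways of scaling or summarising the arrays (bright genes means centred on genes with a mean level of at least 3), without (left) and with palmitate (right). The members lie below all genes in each of these 6 columns (not so without a filter on dim probes, which is not drawn), and closest to them under quantile scaling without palmitate.

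Macrophage, stellate cell and endothelial transcripts differed between the genotypes by much more, while those of cholangiocytes and lymphocytes were mixed. No measured neutrophil marker was lower in Drp1LiKO in either condition. Markers not well above background on 1 array of a pair entered the medians here at the smallest size the array's floor allows. Of the macrophage markers 14 of 16 were measured, with a median log2 difference of 2.21 without and 1.61 with palmitate (13 markers). With palmitate 2 of these 13 were lower in Drp1LiKO, the lowest at -0.36. The summed level of the macrophage markers on the linear scale (1 equals the array's 75th percentile) was 33.1 to 40.7 on the 2 control arrays and 61.0 to 63.0 on the 2 Drp1LiKO arrays. Of the stellate and mural cell markers 11 of 12 were measured (Des was not), with medians of 1.83 and 1.23 (9 markers) and sums of 47.7 to 49.2 and 65.7 to 71.2. All 9 endothelial markers were measured, with medians of 1.63 and 0.87 (8 markers) and sums of 1.68 to 1.70 and 3.55 to 4.96. Of these, Tek went the other way with palmitate, where it was at least 2.02-fold higher in control. The macrophage marker Timd4 was not well above background on any array. Of the cholangiocyte markers 4 of 5 were measured, with Krt19 at -0.37 and -0.40, Spp1 at -0.60 and -0.40, Sox9 at 0.45 and 0.21 and sums of 57.1 to 60.5 on the control and 41.8 to 43.6 on the Drp1LiKO arrays. Of the neutrophil markers 3 of 5 were measured, and Csf3r, the only one well above background on all arrays, differed by 0.062 and 0.061. Ly6g, not well above background on the control arrays, was at least 4.84-fold and 2.67-fold higher in Drp1LiKO. S100a8 was well above background on the 2 palmitate arrays alone, between which it differed by 2.39, higher in Drp1LiKO. Of the lymphocyte markers 3 of 7 were measured, and Cd3e and Cd4 differed by -0.087 and -0.21 and by -0.37 and -0.21. The third, Ms4a1, was well above background on the Drp1LiKO array with palmitate alone, where it was at least 1.38-fold higher than control. Hepatocyte markers had medians of 0.14 and 0.0059 and sums of 1342 to 1355 and 1343 to 1367. Single hepatocyte markers spread more widely than these values. In each condition 1 of 10 was past 2-fold higher in Drp1LiKO and 0 were past 2-fold lower. The lowest hepatocyte marker differed by -0.66 without and -0.72 with palmitate, and 3 and 5 of 10 were below 0. The part of other cell types in the subunit differences was not tested, and fewer cells of a type and less RNA per cell cannot be told apart in such samples.

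By complex, the lowest medians were those of complexes I and V, and complexes II, III and IV lay closer to the bright genes. The medians without and with palmitate were -0.17 and -0.16 for complex I, -0.057 and -0.049 for complex II, -0.053 and -0.097 for complex III, -0.089 and -0.056 for complex IV, and -0.15 and -0.15 for complex V. The differences between complexes were not tested.

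**Figure D3:**
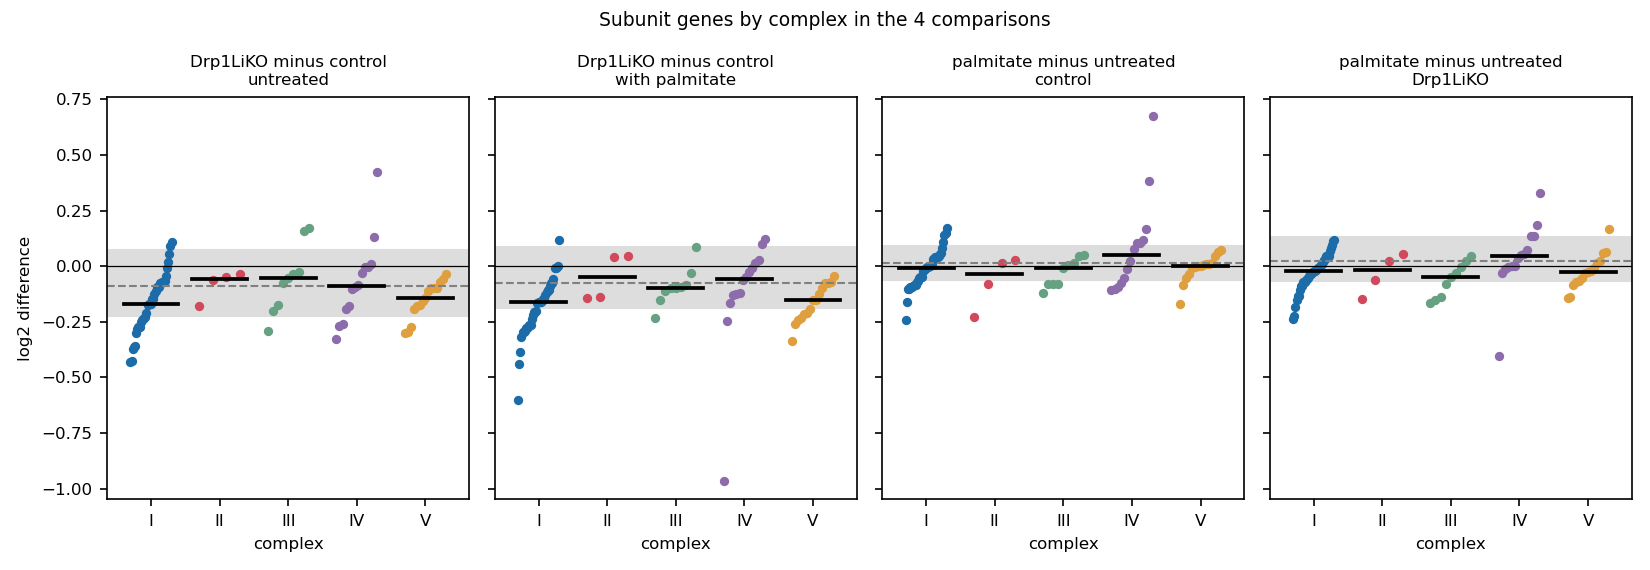
Log2 difference of every measured subunit gene (points, sorted within each complex) in the 4 comparisons, with the median of each complex (black bar), and the median (dashed line) and middle 50% (grey band) of the 4040 genes with a mean level of at least 3. Complexes I and V lie lowest in the 2 genotype panels, and the points gather around 0 in the 2 palmitate panels.

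Complex I, the NADH dehydrogenase and the largest complex, had 33 of 37 members lower without palmitate and 35 of 37 with it. Its members include 7 core subunits, which carry the flavin, the iron-sulfur clusters and the quinone site, and 30 accessory genes. Ndufa4 and Ndufa4l2, described below, are counted among the accessory genes here. The core median was -0.17 without and -0.11 with palmitate, and the accessory median -0.16 and -0.18. The difference between the core and accessory genes was not tested.

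The lowest values were those of accessory subunits. Ndufa5, a subunit of the matrix arm (probe at chr6:24468666-24468725, mm9), had levels of 6.21 on the control array, 5.78 on the Drp1LiKO array, 6.21 on the control array with palmitate and 5.77 on the Drp1LiKO array with palmitate. Its 2 Drp1LiKO values lay below both control values, with differences of -0.43 without and -0.44 with palmitate. A second probe of the gene differed by -0.44 and -0.39. Ndufa11, a membrane arm subunit (probe at chr17:56857241-56857300, mm9), had levels of 3.38 on the control array, 2.95 on the Drp1LiKO array, 3.33 on the control array with palmitate and 2.94 on the Drp1LiKO array with palmitate, with differences of -0.43 and -0.38. For both genes the palmitate and untreated arrays of a genotype lay within 0.06 of each other. Ndufb7 and Ndufb8, both of the membrane arm, had levels of 5.80, 5.44, 5.71 and 5.41 and of 5.70, 5.34, 5.70 and 5.41 in the same order of arrays. Ndufb7 differed by -0.37 and -0.30, and Ndufb8 by -0.36 and -0.29, although a second, dim probe of Ndufb8 gave only -0.10 and -0.11. Ndufs6, a small zinc-binding subunit needed late in assembly, differed by -0.30 and -0.20.

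Among the core subunits, Ndufs8, which holds iron-sulfur clusters next to the quinone site, was the lowest in Drp1LiKO. It had levels of 4.92 on the control array, 4.63 on the Drp1LiKO array, 4.82 on the control array with palmitate and 4.50 on the Drp1LiKO array with palmitate, and both genotype differences had a size near 0.3 (-0.28 and -0.32). Ndufv2, an iron-sulfur subunit of the NADH-binding module, differed by -0.24 and -0.28. The flavin-binding Ndufv1, where NADH is oxidised, differed by -0.11 without palmitate and by -0.0028 with it. Ndufs7, which lines the quinone site, differed by -0.17 and -0.11. Ndufs1, the largest iron-sulfur subunit, had 0.018 and -0.11. The core set thus ranged from -0.32 to -0.0028 with palmitate, all of one sign. Of the complex I genes the highest was Ndufa6, at 0.11 and 0.12, which is less than the shift that median scaling applies to every gene, so that it was negative there.

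Ndufa4 and its hypoxia-inducible relative Ndufa4l2 are named for complex I, although the protein of Ndufa4 is now counted with complex IV. Ndufa4 had levels of 5.22, 5.12, 5.39 and 5.17 and differed by -0.095 and -0.22. Ndufa4l2 (probe at chr10:126954149-126954208, mm9) had levels of 0.76, 0.39, 0.90 and 0.30 and differed by -0.37 and -0.60. Both were lowest in Drp1LiKO cells. Near the Ndufa4l2 spot 2 of 24 neighbouring spots were lit on the control array with palmitate alone.

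Complex II, the succinate dehydrogenase shared with the tricarboxylic acid cycle, is encoded wholly in the nucleus, and its 4 genes differed little. The flavoprotein Sdha had levels of 4.43, 4.37, 4.35 and 4.39 and the iron-sulfur subunit Sdhb of 6.09, 5.91, 6.11 and 5.97. Sdhb was lower in both conditions, at -0.18 and -0.14, while Sdha differed by -0.064 and 0.042. The membrane anchors Sdhc and Sdhd differed by -0.036 and 0.044, and by -0.050 and -0.14. With so few genes, complex II overlapped every other complex in its values.

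In complex III, the cytochrome bc1 complex, 7 of 9 genes were lower without palmitate and 8 of 9 with it. The quinone-binding Uqcrb had levels of 6.04, 5.75, 6.04 and 5.80 and was the lowest, at -0.29 and -0.24, with -0.14 and -0.17 from a second probe. The haem subunit Cyc1 (cytochrome c1) had levels of 6.47, 6.27, 6.39 and 6.29 and differed by -0.20 and -0.097. The Rieske iron-sulfur protein Uqcrfs1 (probe at chr13:30632363-30632422, mm9) lay on the other side, with levels of 4.70, 4.87, 4.70 and 4.79 and differences of 0.17 and 0.085. It was negative after the shift that median scaling applies to every gene, and also with the mean of its probes, the other of which was not well above background. The core proteins differed by -0.026 and -0.11 (Uqcrc1) and by 0.16 and -0.030 (Uqcrc2). The catalytic and core genes of complex III were therefore mixed in sign, while its 5 small subunits were lower in both conditions.

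Complex IV, cytochrome c oxidase, has paired isoforms for several subunits. Of the 9 ubiquitous isoforms 9 were lower without palmitate and 8 with it, with medians of -0.096 and -0.064. Cox4i1, the ubiquitous form of the largest nuclear subunit, had levels of 7.50 on the control array, 7.24 on the Drp1LiKO array, 7.39 on the control array with palmitate and 7.22 on the Drp1LiKO array with palmitate, and differed by -0.26 and -0.16. Cox7c differed by -0.27 and -0.13 and Cox6b1 by -0.18 and -0.13. At the other end, Cox5a had levels of 6.94, 6.94, 7.06 and 7.07, and its genotype differences were under 0.02 in size in both conditions. Cox6a1, Cox7a2 and Cox8a differed by -0.029 and -0.048, by -0.10 and -0.12, and by -0.083 and -0.0085. Cox7a2l, which joins complexes III and IV into supercomplexes, was higher, at 0.13 and 0.10, but negative after the shift that median scaling applies to every gene. Cox5b was not analysed here.

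The isoforms of other tissues had low levels and the widest spread among the members. Cox6a2, the heart and skeletal muscle form (probe at chr7:135349160-135349219, mm9), had levels of -1.68 on the control array, -2.01 on the Drp1LiKO array, -1.01 on the control array with palmitate and -1.97 on the Drp1LiKO array with palmitate. The control array with palmitate was high and the other 3 lay within 0.33 of each other, so the genotype difference was -0.33 without and -0.97 with palmitate. With median scaling the latter was -1.11, past 2-fold. Near its spot 2 of 24 neighbouring spots were lit on the control array alone and 1 on the control array with palmitate alone. Cox7a1, another muscle form, had levels of -0.30, 0.13, -0.40 and -0.28 and was the highest member in both genotype comparisons (0.42 and 0.12), where one Drp1LiKO array stood above the other 3. Cox4i2, a hypoxia-responsive lung form, differed by -0.19 and -0.24, and the testis form Cox6b2 by 0.011 and 0.028.

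In complex V, the ATP synthase, 15 of 15 genes were lower in Drp1LiKO in both conditions, with no gene below -0.34. This depended on the processing. Under the alternatives, Atp5g2, Atp5g3 and Atp5d rose as high as 0.060, 0.033 and 0.17 without palmitate, and Atp5b as high as 0.034 with it. The peripheral stalk, which holds the head still, and the c-ring had the lowest medians. Its coupling factor Atp5j had levels of 5.90 on the control array, 5.60 on the Drp1LiKO array, 5.86 on the control array with palmitate and 5.53 on the Drp1LiKO array with palmitate, and both Drp1LiKO arrays lay below both control arrays (-0.30 and -0.34). The other stalk genes differed by -0.19 and -0.24 (Atp5h), -0.18 and -0.21 (Atp5o) and -0.037 and -0.13 (Atp5f1). The 3 Atp5g genes encode the same mature c-ring protein with different import sequences. Atp5g1 had levels of 6.22, 5.95, 6.23 and 5.97 and differed by -0.27 and -0.26, Atp5g3 by -0.16 and -0.23, and Atp5g2 by -0.059 and -0.077. The order of the 3 c-ring genes was the same in both conditions. The head subunits Atp5a1 and Atp5b, which bind nucleotide, had -0.11 and -0.097, and -0.098 and -0.042. Atp5e, of the central stalk, differed by -0.29 without palmitate and by -0.075 with it. Atp5s, named for the complex but no subunit of it, differed by -0.39 and -0.42 at levels of -2.36, -2.75, -2.37 and -2.79.

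**Figure D4:**
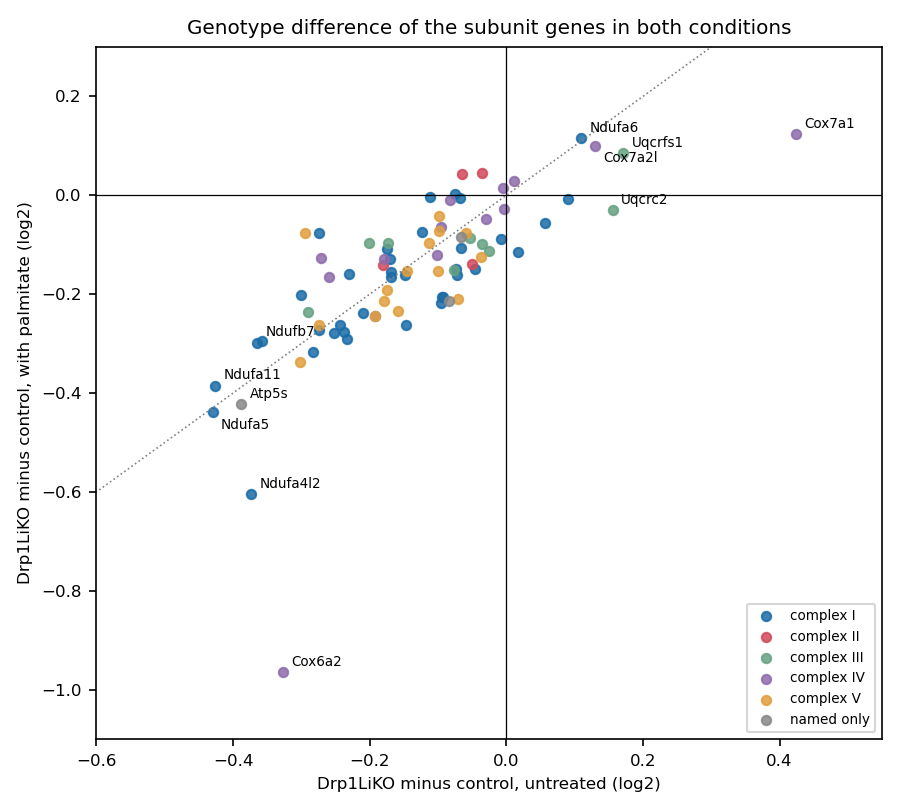
Log2 difference of Drp1LiKO from control without palmitate (horizontal axis) and with palmitate (vertical axis) for the 82 measured genes, coloured by complex; the dotted line marks equal differences. Most points (69 of 82) lie in the lower left part along the dotted line, with Cox6a2 and Ndufa4l2 below it and Cox7a1 far to the right.

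Members with more than 1 probe well above background on all arrays numbered 27. Over these the genotype difference varied between probes by a median size of 0.073 without and 0.046 with palmitate, and by up to 0.66 (Atp5j2, whose second probe was dim). A second probe with a mean level of at least 3 was present in 19 of them. For these 19 the difference between probes had a median size of 0.050 without and 0.039 with palmitate, and the sign was shared in 18 and 17 of them. For the palmitate response the median size was 0.11 in control and 0.073 in Drp1LiKO cells, and the sign was shared in 10 and 11. Bright second probes thus shared the direction of the genotype difference in most genes and that of the palmitate response in about as many genes as not.

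Palmitate, a saturated fatty acid, was compared with no palmitate in each genotype, a comparison that was also between slides. The members differed little. The median response was -0.0015 in control and -0.014 in Drp1LiKO cells, with 42 and 49 of 82 lower. The background was 48.4% and 49.3% of all genes lower, and 45.1% and 43.2% of bright genes. Past 2-fold were 0 members in either genotype, where 5.70% of 18772 genes in control and 7.04% of 19746 in Drp1LiKO cells were, but only 0.173% and 0.866% of bright genes. At 0.5 there was 1 member in control cells, Cox6a2 (higher by 0.68; 12.8% of all genes, 1.41% of bright genes), and 0 in Drp1LiKO cells (17.6% and 3.74%). By complex, the medians in control and Drp1LiKO cells were -0.0074 and -0.020 for complex I, -0.034 and -0.019 for complex II, -0.0077 and -0.050 for complex III, 0.048 and 0.044 for complex IV, and 0.0019 and -0.025 for complex V.

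Across the members the responses in the 2 genotypes had r = 0.53 and rho = 0.51, with 24 higher and 33 lower in both, and both rest on the same 2 slides. Neither this correlation nor the counts shared by both genotypes were made over all genes, so they cannot be read as particular to the members. Cox4i2 had levels of -0.65, -0.84, -0.27 and -0.51 and was higher with palmitate in both genotypes, by 0.38 and 0.33. Atp5sl, no subunit, was higher by 0.22 and 0.20, and Cox6b2 by 0.17 and 0.19. Ndufa6 had levels of 5.60, 5.71, 5.36 and 5.48 and was the lowest in control cells, at -0.24, and at -0.24 in Drp1LiKO cells. The anchor Sdhc had levels of 3.56, 3.53, 3.33 and 3.38 and differed by -0.23 and -0.15, and the central stalk gene Atp5d by -0.17 and -0.14. Cox7a1 differed by -0.10 and -0.40, and Ndufs1 by -0.093 and -0.23. Among these genes, which were named as extremes of the same comparisons, the response had the same sign in both genotypes. Under the alternatives in processing the response rose as high as 0.36 for Atp5d in control cells and 0.021 for Ndufs1 in Drp1LiKO cells. The difference between the 2 responses had a median of -0.019 over the members and ranged from -0.64 (Cox6a2) to 0.22 (Atp5e). It was past 1 in 0 members (10.8% of all genes, 0.446% of bright genes) and past 0.5 in 1, Cox6a2 (21.3% and 3.19%).

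A single fit could use all 4 arrays together: genotype and palmitate as additive terms in limma, with 1 residual degree of freedom, which takes the 2 genotype differences as repeats of each other. With Benjamini-Hochberg adjustment over 20614 genes, 0 members were called for genotype (0.00% of all genes) and 0 for palmitate (0.00%). Unadjusted p was under 0.05 in 8 members for genotype (26.0% of all genes) and in 1 for palmitate (9.68%), and the smallest adjusted p of a member was 0.147 for genotype, of Ndufa5. With the variance allowed to follow intensity, the same limma fit called 25 members for genotype, all lower in Drp1LiKO, where it called 26.0% of all genes, and 0 for palmitate (0.902%). The adjusted p of Ndufa5 was then 0.00224. Limited to genes well above background on all 4 arrays, limma called 1 member, Ndufa5 (adjusted p = 0.0467), and 15.6% of genes. With normexp background correction it called 0 members and 7.37% of genes. In none of these fits was the count of members called above the share of all genes by more than a few percentage points. These p-values rest on single cultures whose independence is not stated.

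Gene lists tied to the respiratory chain are given for comparison, where 14.4% of all genes (2.62% of bright genes) were past 2-fold without and 11.5% (1.83%) with palmitate. Of 43 assembly factors, 1 was called at 2-fold without palmitate and 0 with it, with medians of -0.038 and -0.063. The called gene, Lyrm7, was well above background on the Drp1LiKO array alone, where it was at least 1.05-fold higher than control. Ttc19, a complex III factor, differed by -0.50 and -0.40. Of 17 genes for electron carriers (ubiquinone synthesis, cytochrome c and electron transfer flavoprotein), 0 were called, with medians of -0.047 and -0.18. Coq10a, a ubiquinone-binding protein, differed by 0.40 and 0.59, and Pdss1, of the ubiquinone side chain, by -0.061 and -0.37. Of 16 tricarboxylic acid cycle genes, 0 were called, with medians of -0.018 and -0.027. The 2 with the largest differences were the pyruvate dehydrogenase subunit Pdhb (0.42 and 0.18) and Idh3b (-0.42 and 0.046).

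Single genes around the chain differed more. Of 13 measured nuclear regulators (Perm1 was not), Ppargc1a was past 2-fold in both conditions. This coactivator of mitochondrial gene expression had levels of -1.87 on the control array, -0.65 on the Drp1LiKO array, -1.79 on the control array with palmitate and -0.52 on the Drp1LiKO array with palmitate, and was higher in Drp1LiKO by 1.21 and 1.27. Its relative Ppargc1b differed by 0.66 and 0.84, and the hypoxia factor Hif1a by 0.67 and 1.00, the latter just short of the 2-fold call before rounding. The mitochondrial transcription factors lay on the other side, at -0.38 and -0.26 (Tfam) and -0.62 and -0.57 (Tfb2m). The factors whose motifs were searched above differed by 0.074 and 0.091 (Nrf1), -0.063 and -0.26 (Gabpa) and 0.0083 and 0.053 (Yy1). Among 10 measured genes of nucleotide exchange and uncoupling, the adenine nucleotide carrier Slc25a4 had levels of 5.10, 3.99, 5.20 and 4.19 and was past 2-fold in both conditions, at -1.12 and -1.01. Ucp3, an uncoupling protein, differed by 0.88 and 0.55 at low levels.

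Probes for 11 mitochondrially encoded subunits, a set added after values had been seen, had a lower median genotype difference than the nuclear-encoded ones. Their median differences were -0.50 without and -0.41 with palmitate, with 9 of 11 lower in each condition. CYTB, cytochrome b of complex III, had levels of 7.60 on the control array, 6.82 on the Drp1LiKO array, 7.58 on the control array with palmitate and 6.72 on the Drp1LiKO array with palmitate, and differed by -0.78 and -0.87. COX1, the catalytic subunit of complex IV, differed by -0.66 and -0.84, and ND4 of complex I by -0.72 and -0.90. ND5 and ND4L, also of complex I, were past 2-fold with palmitate (-1.09 and -1.05), while ND3 was higher in both (0.35 and 0.21). ND6, the only one of these genes on the other strand of the mitochondrial genome, had -0.62 and 0.33. ND1 differed by -0.22 and -0.29 and ND2 by 0.042 and -0.41. Without palmitate the mitochondrially encoded genes of complex I thus lay on both sides of the nuclear median of -0.17. The difference between the 2 sets was not tested.

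**Figure D5:**
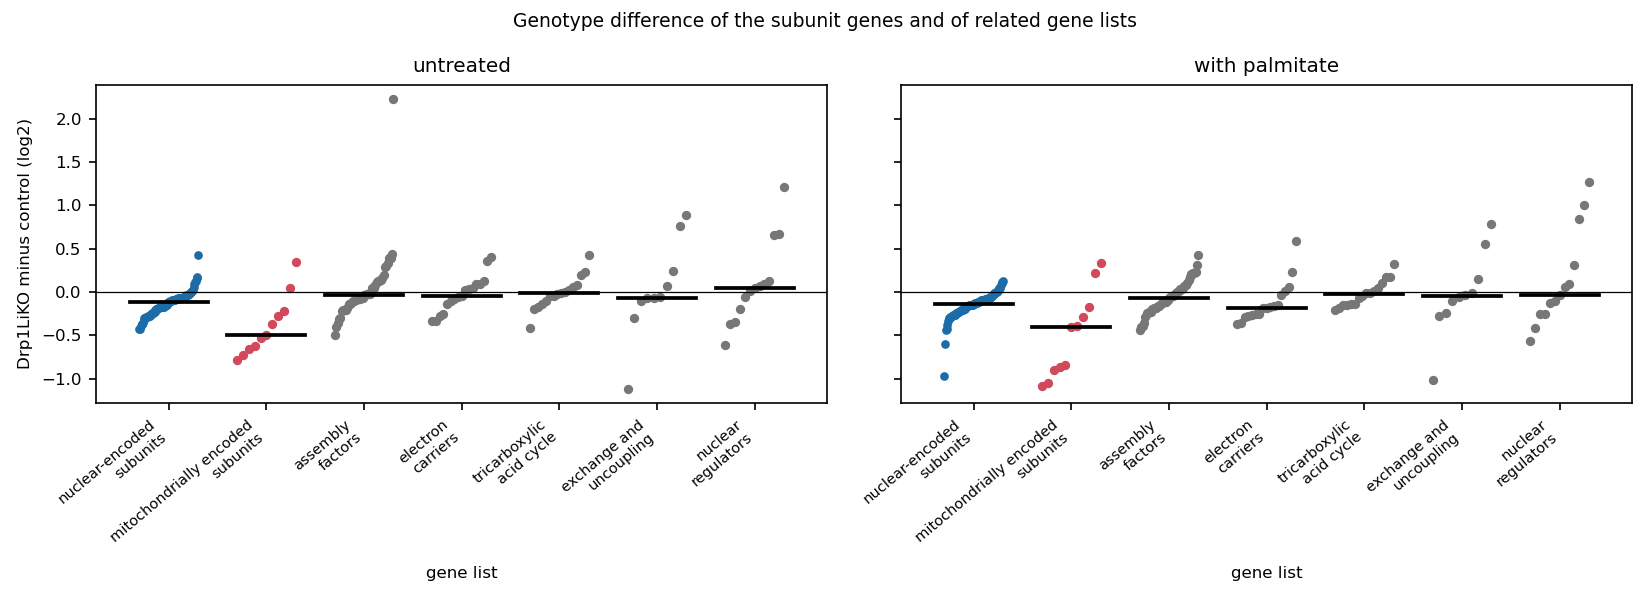
Log2 difference of Drp1LiKO from control for the nuclear-encoded subunit genes (blue), the mitochondrially encoded subunits (red) and 5 related lists (grey), without (left) and with palmitate (right); black bars are medians. The nuclear-encoded subunits form a narrow band just below 0, the mitochondrially encoded ones reach below -1 with palmitate, and the regulators reach above 1. Lyrm7, the highest point without palmitate, was well above background on the Drp1LiKO array alone.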

How the data were processed

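RNA of primary hepatocytes was labelled with Cy3 and hybridised, 1 array per group, to Agilent mouse arrays with probes of 60 bases (coordinates mm9). Per the file headers the authors deposited Feature Extraction 10.7.1.1 output, while the submitters' processing notes name version 9.5.1.1; its processed signal is a background-corrected intensity. The authors' deposited table holds quantile-normalised intensities and served as an alternative.

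The processed signal was converted to log2 and the array's 75th percentile over non-control spots subtracted. Outlier spots were left out and repeated spots averaged. Each gene took the brightest of the probes that any array measured well above background. A gene entered a pair of arrays if it was well above background on either, and was called at a log2 difference of at least 1 (or 0.5). An additive model was fitted with limma 3.58.1 in R 4.3.3 at an adjusted p of 0.05, and its script was tested on simulated data. Tables were made with Python 3.11.15. Array number limits the precision.

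Named were the 3 highest and 3 lowest members of each comparison, core subunits (1 is not reported here), isoform sets, members past 2-fold, and the 2 largest differences of each related list; further genes were named after their values were seen. Ndufa4l2, Cox6a2 and the others with low levels were kept. Members and lists were chosen with earlier results of these data known. Alternatives were median, quantile and normexp (offset 50) scaling, stricter and no filters, the mean of a gene's probes, a floor for dim values, and centring on bright genes.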

Additional observations from a re-analysis of the deposited data

How the results depend on the processing

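The median genotype difference of the members was below 0 under all 8 scalings and filters run, in both conditions. Without palmitate it was -0.30 with median scaling, -0.049 in the quantile-normalised table and -0.023 centred on bright genes, and with palmitate -0.29 with median scaling and -0.066 centred on bright genes. The median palmitate response was -0.055 in control cells with median scaling and -0.070 in Drp1LiKO cells with quantile scaling. Counts past 2-fold were 0 except for these: 1 (Cox6a2) with median scaling in the genotype comparison with palmitate, 1 (Cox8c, not well above background) without a filter on dim probes for genotype without palmitate, for palmitate in control cells and for the difference between responses, and 1 (Uqcrb) with the mean of all probes for the difference between responses. At 0.5 the counts were 2 for genotype with palmitate, 1 for palmitate in control cells and 1 for the difference between responses. The additive limma fit called 25 members for genotype with an intensity trend and 1 with the filter on all 4 arrays. The causes were not tested. No paired analysis was possible because the labels give no replicate numbers; the additive fit sets the genotypes against each other within slide. Leaving out 1 array leaves that fit no residual degree of freedom and the other genotype pair unchanged.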
